A study of Homo sapiens with 12 samples.

Results

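The genes described here encode the machinery that carries the interferon gamma (IFNγ) signal from the cell surface to the nucleus and the inhibitors that damp it. They are the receptor chains *IFNGR1* and *IFNGR2*, the Janus kinases *JAK1* and *JAK2*, the transcription factors *STAT2* and *STAT3*, and the suppressors of cytokine signalling *SOCS1*, *SOCS2* and *SOCS3*. The 9 genes were chosen by name, as rows of the deposited expression table, out of 45416 genes. They were measured by RNA-seq in U251 cells, an established human glioblastoma line, which were transfected with a control siRNA (siNC) or with either of 2 different siRNAs against *PD-L1*, siPDL1-1 and siPDL1-2. After 48 h, cells of each siRNA group were left unstimulated or received IFNγ at 100 U/ml for 24 h. The 6 groups were therefore siNC, siPDL1-1 and siPDL1-2 without IFNγ, and the same siRNAs with IFNγ, with 2 libraries in each. Every library came from transfected cells of 1 line labelled wild type, so that no group of untransfected cells was compared and results of 1 line are described. The methods name 2 independent experiments, and the p-values given here measure only the spread between these libraries.

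IFNγ binds a receptor built of an IFNGR1 chain, which holds the ligand and recruits JAK1, and an IFNGR2 chain, which brings JAK2. The kinases activate each other and phosphorylate the receptor, and STAT proteins that dock there are phosphorylated, pair up and switch on target genes at GAS elements in the DNA. STAT2 works mainly with IRF9 in the ISGF3 complex, which type I interferons use to act at ISRE elements, whereas STAT3 is best known downstream of IL6-family cytokines that signal through gp130. SOCS proteins are made in response to the signal and feed back on it: SOCS1 and SOCS3 can block JAK kinases directly, and SOCS2 is best known as a brake on growth hormone signalling.

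Between 17101069 and 55657393 reads per library were counted on genes, and 1 read was worth 0.0187 to 0.0586 CPM. Values are the authors' normalized CPM (counts scaled to library size), and group values are given as mean ± SD of 2 libraries. Differences are log2 fold changes of CPM + 1, which understate the change of genes near or below 1 CPM, and were tested with limma. A gene is said to be called, or to have risen or fallen, when its FDR was under 0.01 and its fold change over 1.5. Of the markers of the line, *VIM* (median 3462 CPM), *CD44* (488), *SOX2* (170), *NES* (153) and *EGFR* (124) were abundant, whereas the glial genes *GFAP* (4.25 CPM), *S100B* (3.58) and *OLIG2* (0.0906) were low or nearly absent. Of the leukocyte markers, *PTPRC*, the defining one, had a median level of 0.0926 CPM, *CD14* of 0.341 CPM, and *CD3E* and *AIF1* of 0 CPM, whereas *CD68*, a lysosomal gene of macrophages, ran from 28.2 to 80.2 CPM. The summed level of the whole leukocyte list, nearly all of it *CD68*, was highest in the stimulated siPDL1-1 libraries, at 75.1 to 80.6 CPM, and lay between 28.3 and 50.7 CPM in the other 10. The targeted gene, *CD274* (*PD-L1*), was 71.2 and 76.0 CPM after IFNγ with siNC, 60.9 and 66.7 with siPDL1-1, where its log2 fold change of -0.20 was not called (limma, FDR = 0.0604), and 37.5 and 35.0 with siPDL1-2, where it fell by 1.001 on the log2 scale (limma, FDR = 2.79e-05). In unstimulated cells *CD274* fell with siPDL1-1 by 0.64 on the log2 scale (limma, FDR = 1.76e-05), so that it checks the label of this siRNA there but not after IFNγ. With siPDL1-2 unstimulated cells had 3.57 and 3.45 CPM, and the log2 fold change of -0.35 (limma, FDR = 0.00183) stayed below the fold threshold, so that *CD274* checks this label after IFNγ only.

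All 9 genes had reads in every library and passed the filter on low reads. Levels were divided by the annotated exon length of each gene, from 1.788 kb for *SOCS1* to 13.174 kb for *JAK1*. Which transcripts were expressed was not tested, so the order and the ratios between genes depend on this annotation. In unstimulated siNC cells, levels per kb of annotated exon ran from *STAT3* at 25.3 ± 0.434 CPM per kb down to *SOCS1* at 0.236 ± 0.0929. Between them, in falling order, came *SOCS3* (18.2 ± 0.521 CPM per kb), *IFNGR1* (16.8 ± 1.07), *IFNGR2* (13.5 ± 0.00354), *JAK1* (12.1 ± 0.340), *SOCS2* (8.21 ± 0.262), *STAT2* (5.56 ± 0.295) and *JAK2* (1.86 ± 0.142). No neighbours in this order overlapped between their libraries. *JAK1* was 6.72 and 6.28 times *JAK2* per kb in the 2 libraries.

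After IFNγ the order changed. In siNC cells *SOCS3* (32.1 ± 3.02 CPM per kb) and *STAT3* (31.5 ± 0.281) stood at the top and overlapped, and *JAK1* was only 1.61 and 1.52 times *JAK2*. In siPDL1-1 cells after IFNγ, *STAT2* (43.3 ± 1.91 CPM per kb) and *SOCS3* (43.1 ± 1.02) led the order and overlapped, and *JAK2* (12.8 ± 1.15) overlapped *JAK1* (12.8 ± 0.179). *SOCS1*, the lowest of the 9 genes in each of the other 5 groups, overlapped *IFNGR2* there at 14.8 ± 0.0990 CPM per kb. *STAT3* was 4.45 and 4.68 times *STAT2* per kb in unstimulated siNC cells, 2.197 and 2.204 times in siNC cells after IFNγ, and 0.786 and 0.782 times in siPDL1-1 cells after IFNγ.

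**Figure D1:**
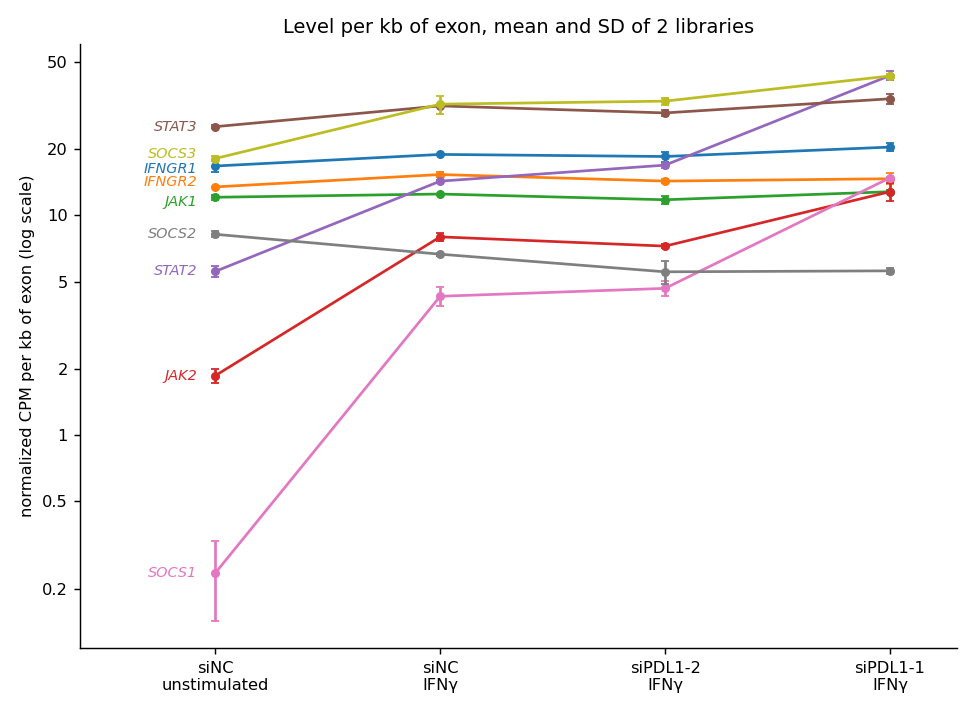
Levels of the 9 genes per kb of annotated exon (vertical log axis, normalized CPM per kb) in 4 of the 6 groups, shown as mean and SD of 2 libraries, with lines that only join the same gene. *JAK2*, *STAT2* and *SOCS1* climb from the bottom of the order, whereas *JAK1*, *IFNGR1* and *IFNGR2* run almost flat.

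The first comparison asked what IFNγ itself did to its own pathway. In siNC cells 4 of the 9 genes were called, all higher with IFNγ, and 8.12% of the 17982 genes tested were called. The 4 were *JAK2*, *STAT2*, *SOCS1* and *SOCS3*. The same 4 genes were called higher in siPDL1-1 cells, where 6.87% of all genes were called, and in siPDL1-2 cells, where 5.27% were called. The median log2 fold change of the 9 genes was 0.31, 0.35 and 0.30 in the 3 siRNA groups, beside a median over all genes tested of 0.0012, -0.0164 and -0.0148.

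Neither receptor chain was called with IFNγ in any siRNA group. *IFNGR1*, the ligand-binding chain (ENSG00000027697, chr6:137197485-137219449 on the minus strand, GRCh38), was 62.2 and 56.9 CPM in unstimulated siNC cells and 67.3 and 67.2 CPM after IFNγ. Its log2 fold change of 0.17 was not called (standard error 0.055, limma FDR = 0.0211). In siPDL1-2 cells the direction was the opposite: *IFNGR1* was 86.7 and 87.3 CPM without and 68.3 and 63.4 CPM with IFNγ, and the log2 fold change of -0.40 met the FDR threshold (limma, FDR = 6.89e-05) without reaching the fold threshold. *IFNGR2*, the chain that brings JAK2 (ENSG00000159128, chr21:33403413-33479348, plus strand), lay between 34.2 and 39.6 CPM in all 12 libraries, and none of its 3 log2 fold changes with IFNγ (0.18, -0.03 and -0.04) was called. *IFNGR2* overlaps *TMEM50B* on the opposite strand, which averaged 20.4 CPM, and the counting did not use strand.

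*JAK1*, the kinase of the IFNGR1 chain and of many other cytokine receptors (ENSG00000162434, chr1:64833229-65067754, minus strand), stayed between 150.5 and 171 CPM in the 12 libraries. Its log2 fold changes with IFNγ were 0.05 with siNC, with a 95% confidence interval from -0.04 to 0.14, and -0.02 and -0.04 with the siRNAs against *PD-L1*. *RAVER2*, on the other strand of the same locus, averaged 30.1 CPM.

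*JAK2*, the kinase of the IFNGR2 chain (ENSG00000096968, chr9:4984390-5129948, plus strand), behaved differently. With siNC it was 14.0 and 15.5 CPM in the unstimulated libraries and 61.3 and 65.1 CPM in the IFNγ-stimulated libraries. The groups were far apart, and *JAK2* rose by 2.03 on the log2 scale (standard error 0.072, limma FDR = 6.07e-12), which was rank 132 of 17982 genes from the highest. With siPDL1-1 it went from 23.3 and 21.3 CPM to 94.9 and 108 CPM, a log2 fold change of 2.13 (limma, FDR = 2.16e-12). With siPDL1-2 the step was smaller, from 26.6 and 25.9 CPM to 58.2 and 56.4 CPM, a log2 fold change of 1.10 (limma, FDR = 1.58e-08).

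*STAT2*, the partner of IRF9 in ISGF3 (ENSG00000170581, chr12:56341597-56360167, minus strand), was 53.7 and 49.8 CPM in unstimulated siNC cells and 134 and 132 CPM after IFNγ. It rose by 1.35 on the log2 scale (standard error 0.049, limma FDR = 7.85e-12). In siPDL1-1 cells *STAT2* went from 64.3 and 65.7 CPM to 416 and 391 CPM, a log2 fold change of 2.61 (limma, FDR = 1.13e-15). In siPDL1-2 cells it went from 53.5 and 54.8 CPM to 161 and 155 CPM, a log2 fold change of 1.53 (limma, FDR = 1.89e-12). The stimulated siPDL1-1 libraries were thus the highest of the 12 by a wide margin.

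*STAT3* (ENSG00000168610, chr17:42313324-42388540, minus strand) was 288 and 281 CPM without and 355 and 351 CPM with IFNγ in siNC cells. Its log2 fold changes of 0.31 with siNC, 0.35 with siPDL1-1 and 0.30 with siPDL1-2 all had an FDR under 0.01 (limma, 1.95e-05, 7.56e-06 and 5.96e-05) and all stayed below the fold threshold, so *STAT3* was not called. The *STAT3* libraries with and without IFNγ did not overlap in any siRNA group, which sets this gene little apart with 2 libraries per group. *JAK1* did not overlap with siNC either, at a log2 fold change of 0.05. The share of all genes without overlap was not computed.

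*SOCS1*, the feedback inhibitor that targets JAK kinases most directly (ENSG00000185338, chr16:11254408-11256204, minus strand), was close to silent before stimulation. It had 0.539 and 0.304 CPM in unstimulated siNC libraries, from 11 and 12 reads, and 8.18 and 7.14 CPM after IFNγ, from 437 and 344 reads. On the log2 scale of CPM + 1 it rose by 2.61 (standard error 0.12, limma FDR = 1.13e-10), and the ratio of the mean CPM was 18.2. With siPDL1-1 it went from 0.667 and 0.612 CPM to 26.6 and 26.4 CPM, a log2 fold change of 4.07 (limma, FDR = 2.76e-13) and a ratio of 41.5. With siPDL1-2 it went from 0.455 and 0.366 CPM to 7.86 and 8.79 CPM, a log2 fold change of 2.72 (limma, FDR = 7.81e-11) and a ratio of 20.3. edgeR's quasi-likelihood test on the reads, which does not need the added 1 CPM, gave log2 fold changes of 4.28, 5.39 and 4.33 in the 3 groups. *RMI2* overlaps *SOCS1* on the opposite strand and moved with it in part, from 6.13 ± 0.402 to 10.1 ± 0.786 CPM with IFNγ in siNC cells and from 4.10 ± 0.310 to 14.0 ± 0.965 CPM in siPDL1-1 cells (n = 2 each). Whether reads of *RMI2* entered the count of *SOCS1* was not tested.

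*SOCS3*, the inhibitor that binds gp130 and JAK kinases (ENSG00000184557, chr17:78356778-78360077, minus strand), had a high level before stimulation and a moderate step. In siNC cells it was 48.6 and 50.6 CPM without and 93.6 and 81.9 CPM with IFNγ, a log2 fold change of 0.81 (standard error 0.063, limma FDR = 1.05e-07). The steps were of like size with siPDL1-1 (0.71, limma FDR = 4.29e-07) and siPDL1-2 (0.78, limma FDR = 1.84e-07).

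*SOCS2*, the brake on growth hormone signalling (ENSG00000120833, chr12:93569814-93583487, plus strand), did not rise in any siRNA group. It was 54.3 and 52.0 CPM without and 43.6 and 42.6 CPM with IFNγ in siNC cells, a log2 fold change of -0.29 with an FDR of 0.00308 (limma) that stayed below the fold threshold. In siPDL1-2 cells the log2 fold change was -0.41 (limma, FDR = 3.60e-04), again below the fold threshold, and in siPDL1-1 cells 0.08 (limma, FDR = 0.436). *SOCS2-AS1*, on the opposite strand, was lower with IFNγ as well, at 19.6 ± 1.87 and 10.8 ± 0.735 CPM in siNC cells (n = 2 each), and its part in the *SOCS2* count was not tested.

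**Figure D2:**
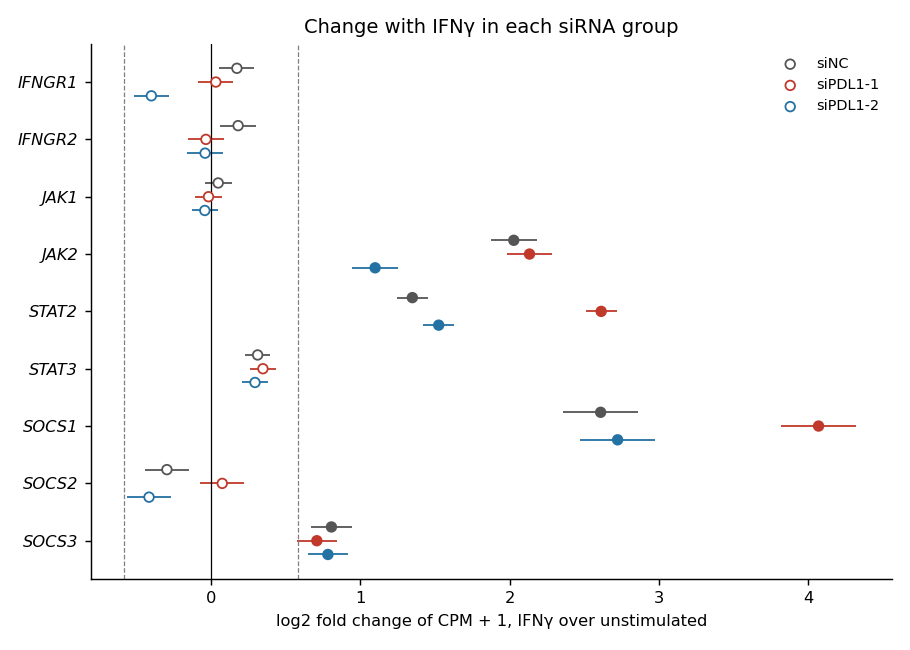
Log2 fold change of CPM + 1 with IFNγ over no stimulation (horizontal axis) for the 9 genes in each siRNA group, with 95% confidence intervals from limma; filled points were called, open points were not, and dashed lines mark the 1.5-fold threshold. *JAK2*, *STAT2*, *SOCS1* and *SOCS3* lie right of the threshold in all 3 groups, with *STAT2* and *SOCS1* farthest out with siPDL1-1 and *JAK2* nearest with siPDL1-2.

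**Figure D3:**
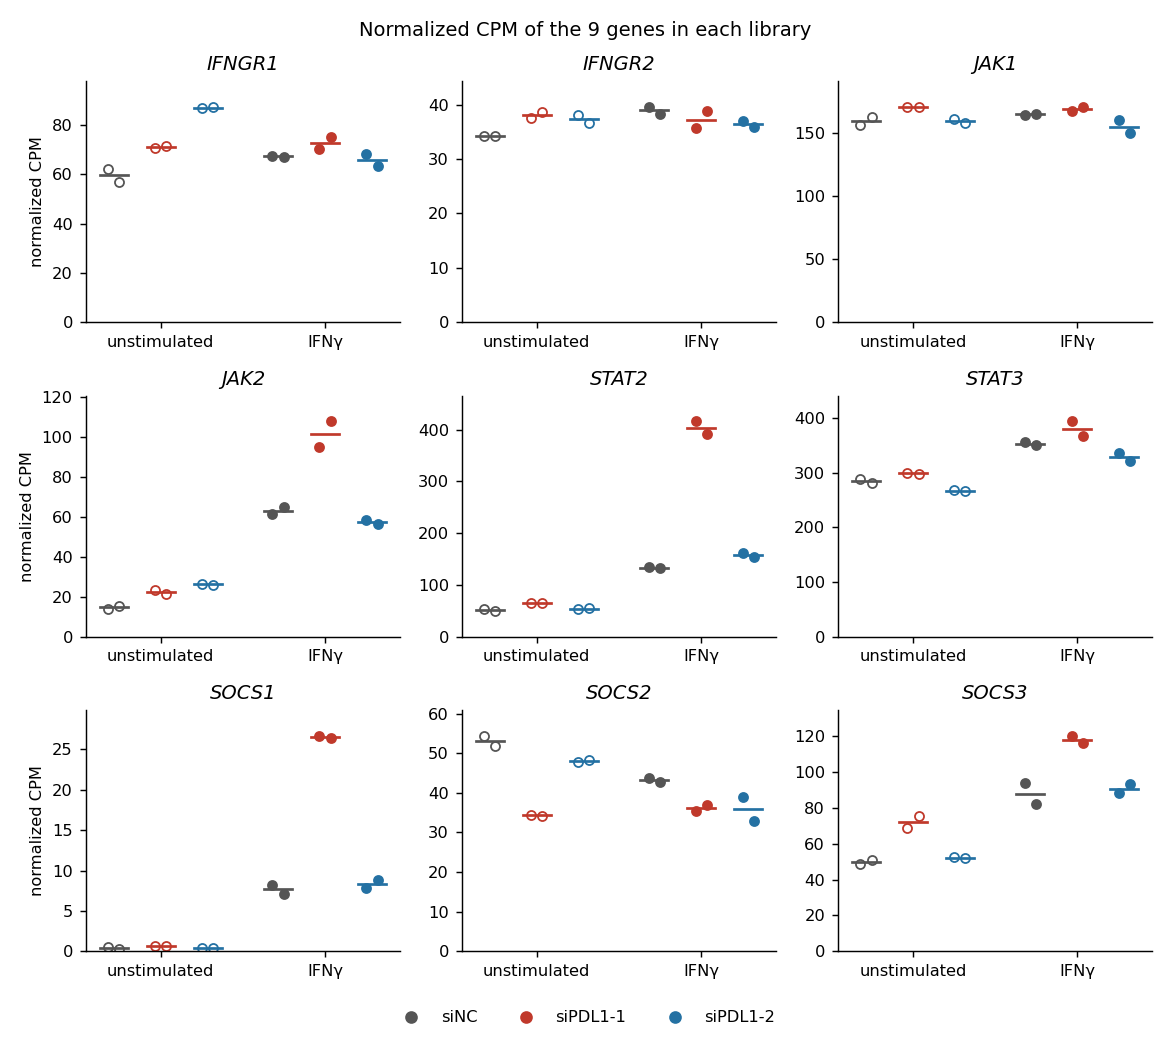
Normalized CPM of the 9 genes in every library (points; open, unstimulated; filled, IFNγ) with the mean of each group of 2 as a bar; vertical axes start at 0. For *STAT2* and *SOCS1* the stimulated siPDL1-1 libraries stand alone at the top, and for *SOCS2* the unstimulated siPDL1-1 libraries lie below the other unstimulated ones.

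The second comparison asked how each siRNA against *PD-L1* changed the pathway in unstimulated cells. The comparisons with siNC share the same 2 siNC libraries. With siPDL1-1, 1 of the 9 genes was called, *SOCS2*, and 4.00% of all genes tested were called. *SOCS2* was 34.4 and 34.2 CPM in these cells, below the 54.3 and 52.0 CPM of siNC, and fell by 0.62 on the log2 scale (standard error 0.068, limma FDR = 9.01e-06). This fold change lay just past the threshold: without the first unstimulated siNC library it was -0.58 and was not called. *JAK2*, at 23.3 and 21.3 CPM against 14.0 and 15.5, had a log2 fold change of 0.57, and *SOCS3*, at 68.5 and 75.1 CPM against 48.6 and 50.6, one of 0.52. Both had an FDR under 0.01 (limma, 3.07e-05 and 1.90e-05) and lay just below the fold threshold. *JAK2* was called with a pseudocount of 0.1 (0.59) or without the second unstimulated siNC or siPDL1-1 library (0.64 and 0.63), and *SOCS3* without the first unstimulated siPDL1-1 library (0.59).

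With siPDL1-2, 1 of the 9 genes was called in unstimulated cells, *JAK2*, and 6.17% of all genes were called. At 26.6 and 25.9 CPM, *JAK2* was higher than with siNC by 0.79 on the log2 scale (standard error 0.072, limma FDR = 1.05e-06). *IFNGR1* was highest of all 12 libraries in these 2, at 86.7 and 87.3 CPM against 62.2 and 56.9 CPM with siNC. Its log2 fold change of 0.54 (limma, FDR = 3.05e-06) stayed below the fold threshold, and was 0.60 and called without the first unstimulated siNC library. *SOCS1*, *SOCS3*, *STAT2* and *JAK1* had log2 fold changes between -0.01 and 0.07.

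Between the siRNAs themselves none of the 9 genes was called in unstimulated cells, and 4.35% of all genes were. At an unadjusted p under 0.05, limma found 7 of the 9, and 44.7% of all genes. edgeR and DESeq2 called 0 of the 9 at the same FDR and fold thresholds as limma. *SOCS2* was lower with siPDL1-1 than with siPDL1-2 by 0.47 and *SOCS3* higher by 0.45 on the log2 scale, both with an FDR under 0.01 (limma, 1.04e-04 and 7.60e-05) and a fold change under 1.5.

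The study's main contrast was the knockdown after IFNγ, which it reported for the 2 siRNAs against *PD-L1* as 1 set of changed genes. Here each siRNA was set against siNC separately, with the 6 stimulated libraries fitted on their own. With siPDL1-1, 3 of the 9 genes were called, all higher than with siNC, and 5.52% of the 17148 genes tested were called. They were *STAT2*, *SOCS1* and *JAK2*. *STAT2* was 416 and 391 CPM against 134 and 132 CPM with siNC, and rose by 1.59 on the log2 scale (standard error 0.057, limma FDR = 1.57e-08), rank 49 of 17148 from the highest. *SOCS1* was 26.6 and 26.4 CPM against 8.18 and 7.14 CPM, and rose by 1.67 (standard error 0.10, limma FDR = 1.10e-06), rank 46. The groups did not overlap for either gene, which sets them little apart with 2 libraries per group, and the ratios of the group means were 3.02 and 3.46. The summed leukocyte markers, at 75.1 to 80.6 CPM against 41.7 to 42.2 CPM in these libraries, moved the same way through *CD68*, and their part in the result was not tested. *JAK2* was 94.9 and 108 CPM against 61.3 and 65.1 CPM, a log2 fold change of 0.67 (standard error 0.074, limma FDR = 8.92e-05), and its call rested on 1 library: without the second stimulated siPDL1-1 library the log2 fold change was 0.58 and was not called. *SOCS3*, at 119.9 and 116 CPM against 93.6 and 81.9 CPM, had a log2 fold change of 0.43 (limma, FDR = 0.00150), which is under 1.5-fold. *SOCS2*, at 35.4 and 37.0 CPM against 43.6 and 42.6 CPM, had a log2 fold change of -0.25 and was not called (limma, FDR = 0.0524). For *IFNGR1*, *IFNGR2*, *JAK1* and *STAT3* the log2 fold changes lay between -0.06 and 0.11, none with an FDR under 0.01.

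With siPDL1-2, the siRNA that lowered *CD274* more after IFNγ, none of the 9 genes was called, and 2.91% of all genes were. Limma found 2 of the 9, *STAT2* and *SOCS2*, at an unadjusted p under 0.05, which 35.8% of all genes also met, and edgeR and DESeq2 called 0 of the 9 at the same FDR and fold thresholds as limma. The 95% confidence intervals of the log2 fold changes ran from -0.30 to 0.03 for *JAK2*, from 0.12 to 0.37 for *STAT2*, from -0.11 to 0.33 for *SOCS1* and from -0.11 to 0.21 for *SOCS3*. Each of these upper limits was under the fold threshold.

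The siRNAs were then compared with each other after IFNγ. 3 of the 9 genes were called, all higher with siPDL1-1, and 2.11% of all genes were called. These were *SOCS1*, by 1.56 on the log2 scale (limma, FDR = 2.42e-06), *STAT2*, by 1.35 (limma, FDR = 6.89e-08), and *JAK2*, by 0.81 (limma, FDR = 4.79e-05). *SOCS3* differed by 0.38 (limma, FDR = 0.00735), below the fold threshold.

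**Figure D4:**
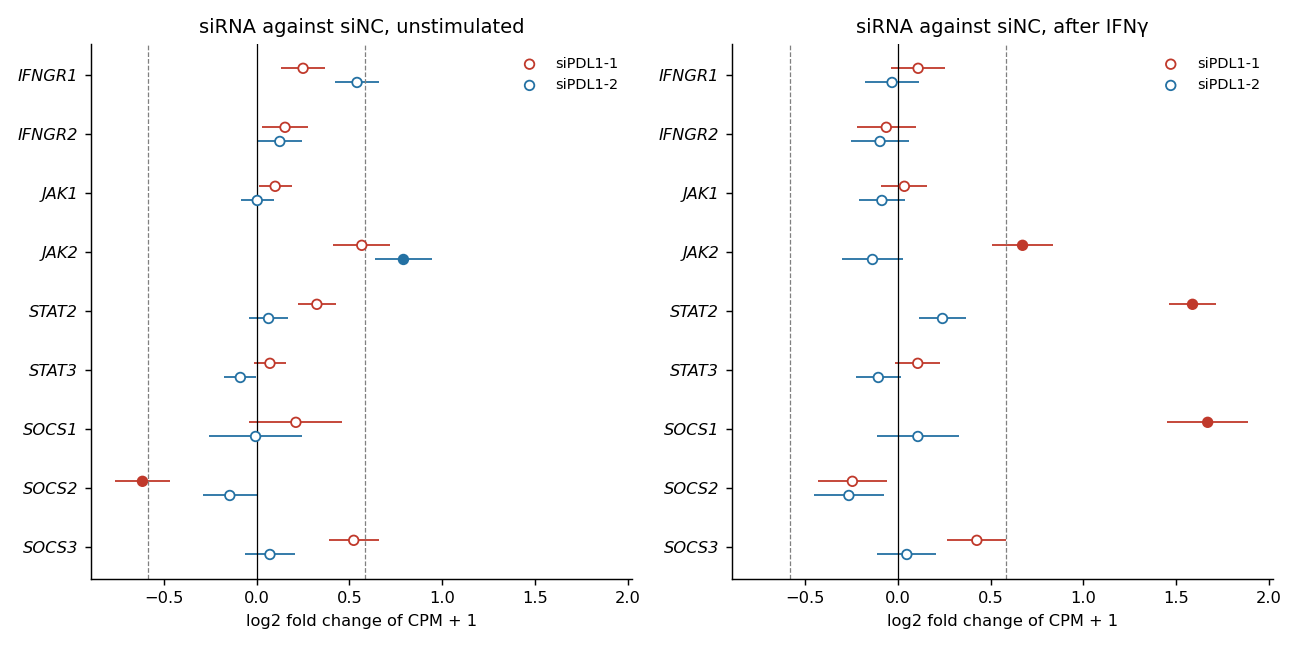
Log2 fold change of CPM + 1 for each siRNA against siNC (horizontal axis) in unstimulated cells (left) and after IFNγ (right), with 95% confidence intervals from limma; filled points were called, open points were not, and dashed lines mark the 1.5-fold threshold. On the right *STAT2* (1.59) and *SOCS1* (1.67) stand apart with siPDL1-1, and all open siPDL1-2 points lie inside the dashed lines.

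The promoters of *SOCS1*, *STAT2* and *JAK2*, the members called between the siRNAs after IFNγ, are shown because interferon-response elements are known from promoters. RefSeq promoter sequences (GRCh38.p14, from 250 bases before to 50 bases after the start) were matched for 8 of the 9 genes, all but *SOCS2*. They are given 5′ to 3′ on the strand of the gene, and capitals mark the match to the ISRE core. They lie at chr16:11256155-11256454 (*SOCS1*, minus strand), chr12:56360058-56360357 (*STAT2*, minus strand) and chr9:4984140-4984439 (*JAK2*, plus strand).
SOCS1: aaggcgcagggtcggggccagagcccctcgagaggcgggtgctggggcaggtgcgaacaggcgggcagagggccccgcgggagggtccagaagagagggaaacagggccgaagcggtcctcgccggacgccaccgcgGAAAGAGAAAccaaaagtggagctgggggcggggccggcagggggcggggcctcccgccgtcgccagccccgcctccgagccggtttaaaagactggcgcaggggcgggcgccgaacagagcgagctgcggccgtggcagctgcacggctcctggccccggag
STAT2: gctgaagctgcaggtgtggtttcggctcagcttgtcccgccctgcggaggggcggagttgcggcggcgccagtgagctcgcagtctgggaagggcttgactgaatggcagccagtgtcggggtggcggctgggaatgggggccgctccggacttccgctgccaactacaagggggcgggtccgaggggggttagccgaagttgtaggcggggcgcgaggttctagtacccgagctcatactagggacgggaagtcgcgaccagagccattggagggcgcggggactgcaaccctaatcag
JAK2: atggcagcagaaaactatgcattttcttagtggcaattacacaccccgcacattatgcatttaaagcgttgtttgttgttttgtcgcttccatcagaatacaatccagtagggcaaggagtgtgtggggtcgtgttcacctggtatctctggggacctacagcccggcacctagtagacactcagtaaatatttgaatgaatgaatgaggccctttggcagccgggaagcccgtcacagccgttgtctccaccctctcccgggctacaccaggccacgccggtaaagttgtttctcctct

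Both strands were searched for the ISRE core (TTTC, then any 2 bases, then TTTC) and for GAS (TTCNNNGAA, where N is any base). The ISRE core was found in 1 of the 8 promoters, that of *SOCS1*, as GAAAGAGAAA from base -113 to base -104 relative to the start, which reads as the core on the opposite strand. Of 27305 RefSeq promoters of this length, 3.65% held the ISRE core. GAS was found in 0 of the 8 promoters, and in 7.88% of all promoters. The RefSeq starts of *SOCS3* and *IFNGR1* lay 848 and 253 bases from the start of the gene in the deposited table, so that their windows covered a different region. These matches describe letters in 300-base windows only.

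The last question was whether the effect of a siRNA depended on IFNγ, tested as an interaction over all 12 libraries. For siPDL1-1, 2 of the 9 genes were called, both with a larger step, and 0.968% of all genes were called. *STAT2* had an interaction of 1.26 on the log2 scale (standard error 0.069, limma FDR = 1.66e-08), since siPDL1-1 raised it by 0.32 on the log2 scale in unstimulated cells, below the fold threshold, and by 1.59 after IFNγ. For *SOCS1* the interaction was 1.46 (standard error 0.17, limma FDR = 5.54e-05), but it was not called with edgeR's quasi-likelihood test (1.11, FDR = 0.105), with DESeq2 (1.11, FDR = 0.149) or with a pseudocount of 0.1 (1.24, limma FDR = 0.0278). The unstimulated libraries behind it held 11 to 26 reads on *SOCS1*. The *JAK2* interaction of 0.11, with a 95% confidence interval from -0.11 to 0.32, was not called, and *JAK2* was higher with siPDL1-1 in unstimulated and in stimulated cells alike (0.57 and 0.67, the first below the fold threshold).

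For siPDL1-2, 1 of the 9 genes was called, with a smaller step, and 7.62% of all genes were called. This was *JAK2*, with an interaction of -0.93 (standard error 0.10, limma FDR = 4.29e-05): it was higher than with siNC before IFNγ, by 0.79, and not afterwards, at -0.14. *IFNGR1* had an interaction of -0.57 (limma, FDR = 1.42e-04), just below the fold threshold, and was called without the first unstimulated siNC library (-0.64) or the first stimulated siPDL1-2 library (-0.63). The interactions of *STAT2* and *SOCS1* with siPDL1-2 were 0.18 and 0.11 and were not called (limma, FDR = 0.0679 and 0.658).

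Other genes of the pathway were taken from 8 lists, which, like the 9 genes, were chosen with earlier results of these data known. Of the 6 other JAK and STAT genes, *STAT5A*, a mediator of cytokine and growth hormone signals, rose with IFNγ in all 3 siRNA groups. Of all genes, 6.67% rose with siNC, 5.58% with siPDL1-1 and 3.62% with siPDL1-2. With siNC *STAT5A* went from 7.88 and 8.20 CPM to 12.7 and 12.5 CPM, only just past the fold threshold. After IFNγ it was 26.4 and 23.5 CPM with siPDL1-1, higher than with siNC by 0.93 on the log2 scale (limma, FDR = 3.13e-05). *STAT6*, near 1 CPM, was the only other gene of this list called, higher with IFNγ in siPDL1-1 (0.69) and siPDL1-2 cells (0.62), and its log2 fold change of 0.56 in siNC cells (limma, FDR = 0.00251) stayed below the fold threshold.

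Of the other SOCS family genes, *CISH*, *SOCS4*, *SOCS5*, *SOCS6* and *SOCS7*, 3 of 5 were called in the siPDL1-2 interaction, all negative, where 5.78% of all genes were called in this direction: *SOCS4* (-1.08), *SOCS5* (-0.72) and *SOCS6* (-0.66). *CISH* (-0.04) and *SOCS7* (0.08) were not called. With IFNγ in siPDL1-2 cells the log2 fold changes of *SOCS4*, *SOCS5* and *SOCS6* were -0.31, -0.10 and -0.35, none called, whereas *JAK2* rose by 1.10. *SOCS4*, which acts on the EGF receptor, was 24.3 and 25.2 CPM in unstimulated siNC cells, 44.3 and 45.5 CPM in unstimulated siPDL1-2 cells, and 38.9 and 33.6 CPM in siPDL1-2 cells after IFNγ. It rose with IFNγ in siNC cells (0.78, limma FDR = 3.22e-06) and with siPDL1-2 in unstimulated cells (0.83, limma FDR = 2.49e-06). None of the 5 was called for either siRNA against siNC after IFNγ, beside 5.52% of all genes with siPDL1-1 and 2.91% with siPDL1-2.

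Of the list of gp130-family receptors, 7 of 8 were tested. In the siPDL1-2 interaction 3 of the 7 were called, all in the negative direction of those 5.78% of genes: *LIFR* (-1.08), the gp130 gene *IL6ST* (-1.004) and the leptin receptor *LEPR* (-0.90). Without IFNγ, *IL6ST*, the shared signalling chain of the IL6 family upstream of STAT3, was 139 and 138 CPM with siNC and 226 and 226 CPM with siPDL1-2. After IFNγ it was 197 ± 1.38 CPM with siNC (n = 2) and 167 and 153 CPM with siPDL1-2. In unstimulated cells *LIFR* and *OSMR* were called higher with siPDL1-1 (0.64 and 0.67), beside 2.55% of all genes. With siPDL1-2, *LIFR* (0.98), *OSMR* (0.67) and *IL6ST* were called higher in unstimulated cells, beside 4.84% of all genes. After IFNγ, 2 of the 7 were called higher with siPDL1-1, beside 3.76% of all genes, and 0 with siPDL1-2, beside 1.80%.

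Genes of the type I interferon arm are set beside *STAT2* and *SOCS1*. *IRF9*, the DNA-binding partner of STAT2, was 20.4 and 18.4 CPM in unstimulated siNC cells, 34.0 and 32.1 CPM with siPDL1-1 and 23.0 and 23.7 CPM with siPDL1-2. It rose with IFNγ in all 3 groups (1.87, 1.78 and 1.82 on the log2 scale) and was higher with siPDL1-1 than with siNC both before (0.74, limma FDR = 6.04e-07) and after IFNγ (0.65, limma FDR = 4.65e-05). *USP18*, an inhibitor of the type I interferon receptor, was the only one of 11 tested inhibitors called in any comparison. With IFNγ 6.67% of all genes were called higher with siNC, 5.58% with siPDL1-1 and 3.62% with siPDL1-2. A count of 1 of 11 therefore says little about this list. After IFNγ *USP18* was 118 and 115 CPM with siPDL1-1 against 19.4 and 20.6 CPM with siNC and 16.1 and 15.4 CPM with siPDL1-2. Of the receptor chains, *IFNAR1* was higher with siPDL1-2 in unstimulated cells by 0.94 on the log2 scale (limma, FDR = 2.53e-08).

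Of 8 type I interferon target genes, 7 were called higher with siPDL1-1 than with siNC after IFNγ and 0 with siPDL1-2, and the medians of their log2 fold changes were 3.43 and 0.11. Of all genes tested, 3.76% were called higher with siPDL1-1 and 1.80% with siPDL1-2. In unstimulated cells 6 of the 8 were higher with siPDL1-1, beside 2.55% of all genes. Stimulation with IFNγ also raised 7 of these 8 genes in each siRNA group. The medians of the 8 log2 fold changes with IFNγ were 2.61 for siNC, 5.49 for siPDL1-1 and 2.94 for siPDL1-2. *MX1* was the gene that did not rise, and it was not higher with siPDL1-1 after IFNγ either. Its means over the 6 groups ran from 3.45 to 4.81 CPM. The ligand *IFNB1* had 18 and 26 reads in the stimulated siPDL1-1 libraries (0.511 and 1.22 CPM) and at most 2 reads in each of the other 10. *IFNG* itself was listed at 0 in all 12 libraries. The part of these genes in the levels of *STAT2* and *SOCS1* was not tested. Of the IFNγ target genes, 10 of 10 rose with IFNγ in each siRNA group, where 6.67% of all genes rose with siNC, 5.58% with siPDL1-1 and 3.62% with siPDL1-2. None was higher with siPDL1-1 than with siNC after IFNγ, while 2 were lower, *IRF1* (-0.63) and *IDO1* (-1.10), beside 1.76% of all genes. In the siPDL1-2 comparison after IFNγ 3 of the 10 were lower, *IDO1* (-1.09), *CD274* (-1.001) and *CXCL9* (-0.95), beside 1.11% of all genes.

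**Figure D5:**
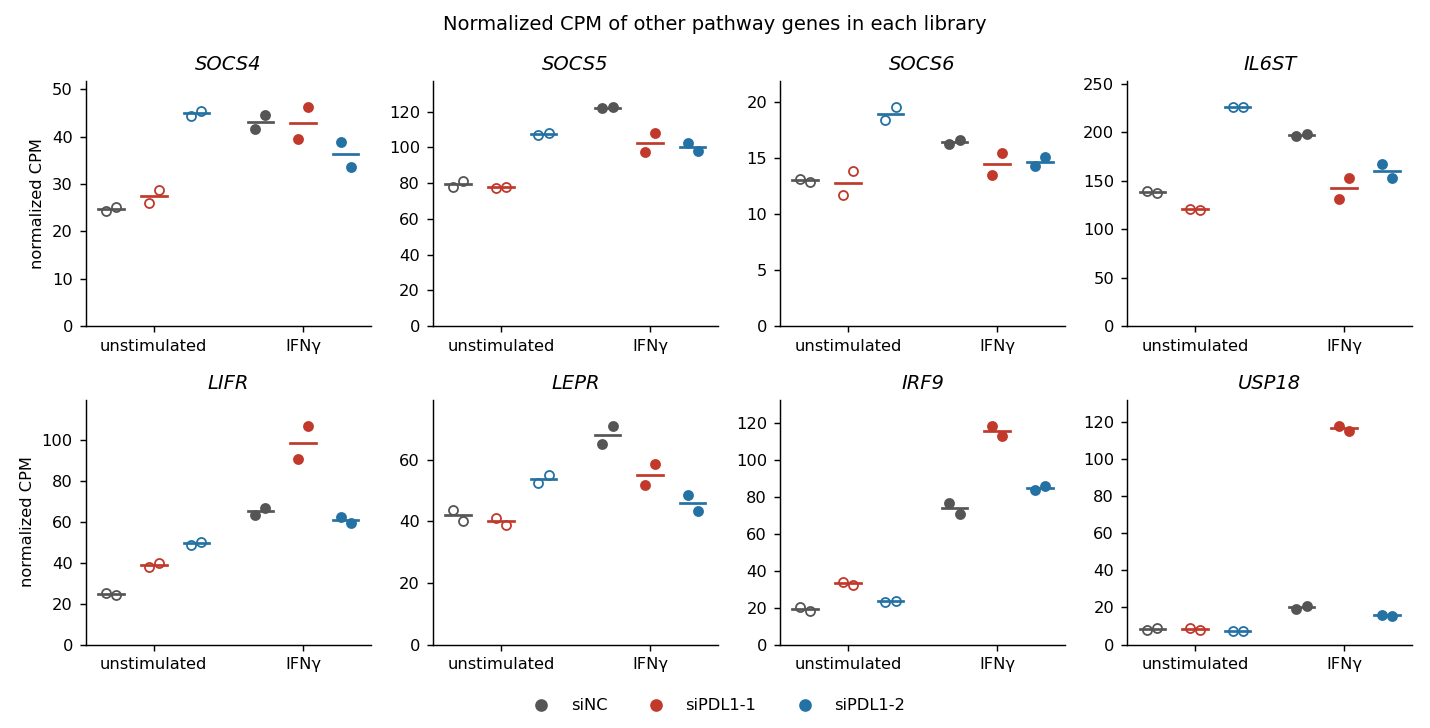
Normalized CPM of 8 other pathway genes in every library (points; open, unstimulated; filled, IFNγ), with the mean of each group of 2 as a bar and vertical axes from 0. *SOCS4*, *SOCS5*, *SOCS6*, *IL6ST* and *LEPR* lie higher in unstimulated than in stimulated siPDL1-2 cells, and *USP18* reaches 118 and 115 CPM in the stimulated siPDL1-1 libraries.

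The genes whose profile over the 12 libraries was most like that of each member were taken by Pearson's r of log2(CPM + 1) over 14269 genes, as a description, since the libraries share their IFNγ and siRNA groups. For *STAT2* they were the interferon-induced genes *OAS2* (r = 0.998), *IFI44* (0.997) and *IFI27* (0.997). For *SOCS1* they were *RTP4* (0.998), *SP100* (0.996) and *GLIPR2* (0.996), for *SOCS3* *REC8* (0.985), *MOV10* (0.981) and *SPOCD1* (0.979), and for *JAK2* *LAPTM4A* (0.990), *USP15* (0.989) and *NT5E* (0.987). *IFNGR1* was nearest to *LRP6* (0.971), *STAT3* to *BAZ2A* (0.992), *SOCS2* to *DKK1* (0.935), *IFNGR2* to *TMEM30A-DT* (0.932) and *JAK1* to *PSTK* (0.918). Levels here are those of whole cultures, in which fewer cells that express a gene and less RNA per cell cannot be told apart.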

How the data were processed

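The signal values are the normalized CPM that the authors deposited. Per the methods, reads were trimmed, aligned to GRCh38 (Ensembl) and counted on both strands in CLC Genomics Workbench, and expression was normalized there. Deposited columns summed to 0.965 to 1.042 times a plain CPM total. In every library 100% of values were whole multiples of 1 read (tolerance 0.01 read), so reads were recovered. Genes were filtered with filterByExpr (minimum count 10, total 15) and log2(CPM + 1) was fitted with limma (trend, robust) over 6 groups, or over 3 groups for comparisons after IFNγ. FDR is Benjamini-Hochberg over all genes tested, in 11 comparisons. The members and lists were chosen with earlier results of these data known. All 9 members are named, with at most 3 called genes per list and comparison and the most alike genes. Exons came from GENCODE. The scripts were tested on simulated data. Alternatives were edgeR's quasi-likelihood test, DESeq2, DESeq2's size factors, a pseudocount of 0.1, no filter, replicate number as a block, leaving out each library, all 12 libraries in 1 fit, no fold threshold and, chosen after seeing the data, CPM from the library totals alone. Versions were limma 3.58.1, DESeq2 1.42.0 and edgeR 4.0.16 in R 4.3.3, with pandas 2.3.3 and matplotlib 3.10.9 in Python 3.11.15. Libraries of other experiments were not analysed here.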

Additional observations from a re-analysis of the deposited data

Results flagged for a closer look

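In 3 cases the effect of a siRNA differed between unstimulated and stimulated cells by a test of the interaction in limma. For siPDL1-1, 2 of the 9 genes were called, beside 0.968% of all genes. For siPDL1-2, 1 of the 9 was called, beside 7.62% of all genes, so that this count is near the share over all genes. The step of *STAT2* with IFNγ was larger with siPDL1-1 than with siNC by 1.26 on the log2 scale, and ranged from 1.21 to 1.32 over the alternatives. For *SOCS1* the step with siPDL1-1 was larger by 1.46, which both count models and a smaller pseudocount did not call. For *JAK2* the step with siPDL1-2 was smaller than with siNC, with an interaction of -0.93 (range -1.001 to -0.86 over the alternatives).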

How the results depend on the processing

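Over 21 alternative settings, 1845 values of single genes were recomputed: 1814 kept their direction when called and their side of the thresholds, 5 lost a call, 26 gained one, and 0 called values reversed, while 37 uncalled values changed sign. For the siPDL1-1 interaction, 1 gene was called in place of 2 with edgeR, DESeq2 and a pseudocount of 0.1, where *SOCS1* dropped out. A pseudocount of 0.1 gave 2 called genes for siPDL1-1 in unstimulated cells. When single libraries were left out, that count ranged from 0 to 2, the count for siPDL1-2 in unstimulated cells from 1 to 2, and the siPDL1-2 interaction from 1 to 2. The group then held 1 library, which was assumed to vary like the other groups. *JAK2* with siPDL1-1 against siNC after IFNγ also fell below the fold threshold, at 0.58, without the second stimulated siPDL1-1 library. With no fold threshold, 7 of the 9 genes (17.1% of all genes) were called for IFNγ in siPDL1-2 cells, 5 (18.8%) for siPDL1-1 and 2 (28.4%) for siPDL1-2 against siNC in unstimulated cells, 5 (24.1%) between the siRNAs in unstimulated cells and 2 (17.1%) in the siPDL1-2 interaction. Smaller moves were to 6 (27.3%) for IFNγ in siNC cells and 5 (22.9%) in siPDL1-1 cells. After IFNγ, 4 (15.7%) were called for siPDL1-1 against siNC and 4 (4.84%) between the siRNAs.

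With replicate number as a block, the counts of called members stayed at 4 for IFNγ in each siRNA group, and no call changed. The numbers did not pair the libraries: deviations from the group mean correlated over 0.1 in 2 of 15 pairs of groups, with a range from -0.132 to 0.193. Groups of 2 libraries limit precision, and counts near 1.5-fold moved with single libraries.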
